A study of Mus musculus with 205 samples.

Results

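Nd1 and Nd2 are the mitochondrial genes that were targeted by 8 of the 52 base-editor pairs in the MitoKO library screen, 4 pairs for each gene. The samples described here were those labelled with Nd1 pairs 27, 28, 53 and 54 or Nd2 pairs 29, 30, 55 and 56 at 7 d (8 samples, 1 for each pair), and the lead pairs 28 and 29 at 14 d (3 samples each). Together these are 14 of the 205 samples of the series. All were cells of NIH/3T3, an established line of mouse embryo fibroblasts, grown with uridine and transiently transfected with a pair of plasmids under the CMV promoter, then sorted for cells carrying both fluorescent markers. The controls were empty-vector samples of the same line, 2 in the screen at 7 d and 3 in the 14 d experiment. Each sample was a sorted pool of cells, so a percentage is an average over the mtDNA copies of many cells and does not say how copies were distributed among cells.

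Both genes encode core subunits in the membrane arm of complex I, the NADH:ubiquinone oxidoreductase that passes electrons from NADH to ubiquinone and pumps protons. ND1 sits where the membrane arm meets the peripheral arm and lines the ubiquinone channel, and ND2 is a subunit of the antiporter-like family further along the membrane arm. A DdCBE (DddA-derived cytosine base editor) is a pair of TALE proteins, designed to bind the light (L) and the heavy (H) strand of mtDNA, each carrying a split part of a deaminase that acts on double-stranded DNA when both parts meet. The deaminase prefers a C that follows a T, and the uracil it leaves is copied as T. Vertebrate mitochondria read TGA as Trp, so a C-to-T change on the heavy strand opposite the G of a TGA codon leaves the stop codon TAA on the sense strand.

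In the mouse mtDNA of GRCm38 (chromosome M, 16299 bp) Nd1 occupies positions 2751 to 3707 and Nd2 positions 3914 to 4951, both with the light strand as the sense strand in this reference. Each frame holds 8 TGA codons, and in both genes the target was the first of them. For Nd1 this is codon 86 of 318 and the change is G3007A, counted from the first base of the reference. Translation would stop after 85 codons (26.7% of the frame). For Nd2 it is codon 30 of 345 and the change is G4002A, with 29 codons (8.41%) before the stop. The sense strand around each target is shown with the TGA codon in capitals, at chrM:2980-3034 for Nd1 and chrM:3975-4029 for Nd2, since these are the sites that the on-target values below describe.
Nd1 sense strand: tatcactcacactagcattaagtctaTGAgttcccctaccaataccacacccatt
Nd2 sense strand: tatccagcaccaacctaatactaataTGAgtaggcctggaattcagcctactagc
The windows were alike at 25 of 55 positions (45.5%), and the run common to both around the target was 7 bases long.

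The edited strand differs between the genes in its neighbourhood. The heavy strand within 10 bases of each target is shown 5′ to 3′, at chrM:2997-3017 (minus strand) for Nd1 and chrM:3992-4012 (minus strand) for Nd2, with the preferred T and the edited C in capitals.
Nd1 heavy strand: taggggaacTCatagacttaa
Nd2 heavy strand: caggcctacTCatattagtat
In both stretches the target was the only C after a T on the heavy strand (1 each). The light strand of the same stretch held 2 such sites in Nd1 and 0 in Nd2. In the whole mtDNA, 1747 of 5989 C:G pairs (29.2%) have a T before the C. Values of single positions other than the target were not used here, so this is a description of sequence only.

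The values behind the results were, for each sample, the on-target editing (percent of reads at the target that carry the edited base), the average off-target editing (the frequency of C:G-to-T:A changes, averaged by the authors across the whole mtDNA, in percent) and the mean coverage. The targets lie 995 bases apart, but differ in how they were amplified. The Nd2 target lies in the 326 bp overlap of both long-range amplicons and the Nd1 target in 1 of them only, 807 bases before the overlap. Mean coverage was 1099 to 14999 in the 8 screening samples of the 2 genes and 37126 to 65020 in their 6 samples at 14 d. It was 560 and 524 in the screening empty vectors and 31439 to 40402 in those at 14 d. Depth at the target itself was not given, so no binomial interval was computed. The screen was sequenced in 3 runs, MS1, MS2 and MS3. Pairs 27, 28, 29 and 30 were all in MS1, pair 53 was in MS2, and pairs 54, 55 and 56 were in MS3, which had no empty vector. The 14 d samples shared a single run. The study's legends call the repeats of each lead pair at 14 d technical replicates, so the SDs, the n and any lack of overlap given for them below describe repeat measurement and not separate cultures.

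In the screen, all 4 Nd1 pairs edited most copies of their target, and the 4 Nd2 pairs ranged more widely. On-target editing by Nd1 pairs was 78.8% (pair 27), 74.4% (pair 28), 69.3% (pair 53) and 86.1% (pair 54). Pair 54 was the 5th highest of the 52 pairs and the highest of the 12 in MS3. On-target editing by Nd2 pairs was 61.5% (pair 29), 65.5% (pair 30), 45.4% (pair 55) and 79.8% (pair 56). The median of the 44 pairs to the other 11 genes was 74.5%, with a range of 17.6% to 93.6%. Nd1 was the higher gene in 13 of the 16 combinations of an Nd1 with an Nd2 pair, and in 4 of 4 within MS1 and 2 of 2 within MS3. The 4 pairs of a gene share their TALE proteins, and the pairs added in the second round of the screen joined a TALE of the first pair with a TALE of the other, so pairs are not replicates and no test was made in the screen.

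As a ratio of means, average off-target editing separated the genes more than on-target editing did. On-target percentages have an upper bound that limits such a ratio, and other scales were not compared in the screen. Average off-target editing was 0.369% (pair 27), 0.332% (pair 28), 0.599% (pair 53) and 0.653% (pair 54) for Nd1. It was 0.148% (pair 29), 0.171% (pair 30), 0.254% (pair 55) and 0.342% (pair 56) for Nd2. Nd1 was higher in 15 of 16 combinations, with Nd2 pair 56 above Nd1 pair 28 as the exception. Pairs 54 and 53 ranked 2nd and 3rd of all 52 pairs off target, and pairs 30 and 29 ranked 50th and 51st. These ranks and the 16 combinations pool the 3 runs. Median off-target editing of all pairs in a run was 0.268% (MS1), 0.285% (MS2) and 0.339% (MS3). Within MS1, which held 2 pairs of each gene, the ratio of the means was 2.19 for off-target editing and 1.21 for on-target editing. Within MS3, which held Nd1 pair 54 with Nd2 pairs 55 and 56, it was 2.19 and 1.37.

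**Figure D1:**
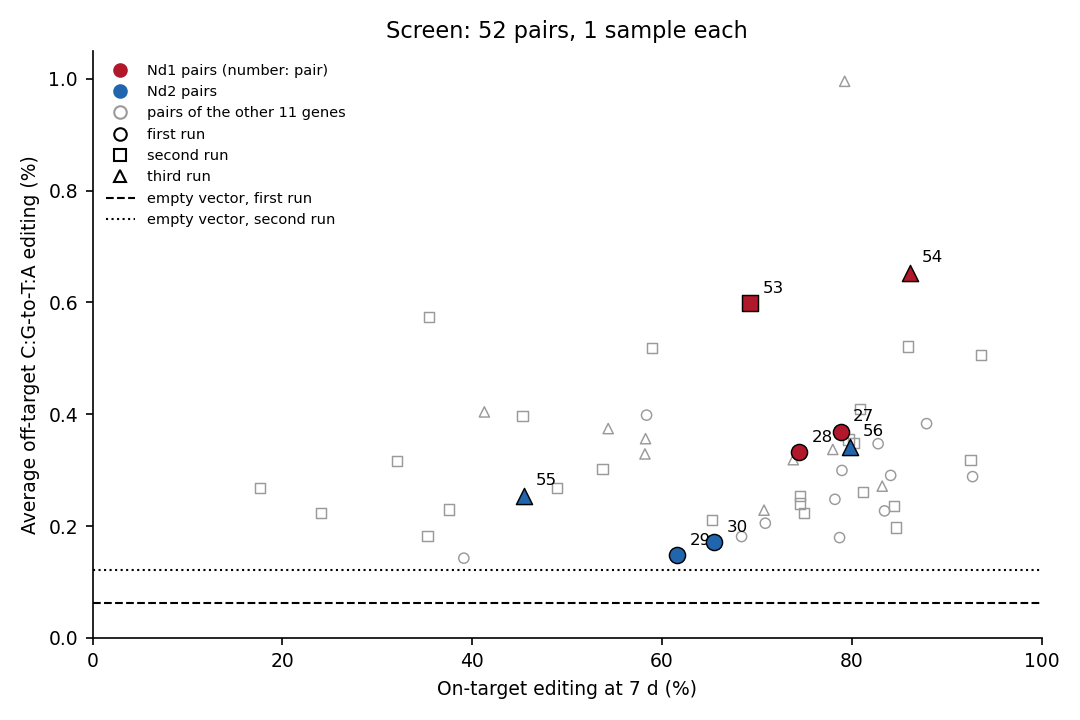
On-target editing (horizontal axis, %) against average off-target editing (vertical axis, %) of the 52 screening pairs at 7 d, 1 sample each, with the marker showing the sequencing run and the lines showing the empty vectors of MS1 (first run, 0.0616%) and MS2 (second run, 0.121%). Nd1 pairs 53 and 54 lie at 0.599% and 0.653% off target, while Nd2 pairs 29 and 30, at 0.148% and 0.171%, lie near the bottom of the plot.

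Against the empty vector of their own run, the Nd1 pairs were 4.93-fold (pair 53), 5.39-fold (pair 28) and 5.99-fold (pair 27) higher off target, and the Nd2 pairs 2.41-fold (pair 29) and 2.78-fold (pair 30). All 5 pairs with an empty vector in their run lay above it. So did all 40 pairs of the screen with such a control (100%), so the count does not set Nd1 and Nd2 apart. The median of the other pairs was 4.35-fold in MS1 (12 pairs) and 2.21-fold in MS2 (23 pairs), and 2.91-fold for all 35 together. In MS1, Nd1 pairs 27 and 28 thus lay above the median of their run and Nd2 pairs 29 and 30 below it. In MS2, pair 53 lay above the highest other pair (4.72-fold). The 2 empty vectors themselves read 0.0616% (MS1) and 0.121% (MS2), 1.97 times apart, each at a coverage under that of every Nd1 and Nd2 sample. Over the mean of both, the folds became 4.03 (pair 27), 3.62 (pair 28), 6.54 (pair 53), 1.62 (pair 29) and 1.87 (pair 30), with pair 53 moving from the lowest of the 3 Nd1 values to the highest. On the same reference, the MS3 pairs were 7.13-fold (Nd1 pair 54), 2.78-fold (Nd2 pair 55) and 3.73-fold (Nd2 pair 56) higher.

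Off-target editing per percent of on-target editing (off-target divided by on-target percentage) set each pair's off-target value against its efficiency, with the background of the run still included. In MS1 the 2 Nd1 pairs stood 2nd and 3rd highest of 16, at 0.00468% (pair 27) and 0.00446% (pair 28) per 1% on target. Their neighbours in that order were Nd4 pair 33 above (0.00682) and Atp6 pair 49 below (0.00436). The 2 Nd2 pairs stood 14th and 15th, at 0.00262 (pair 30) and 0.00241 (pair 29), between Nd3 pair 32 (0.00265) and Cytb pair 42 (0.00228). With the MS1 empty vector subtracted, 2 of these orders reversed. Pair 28 (0.00363) then lay below Atp6 pair 49 (0.00366), and pair 29 (0.00141) below Cytb pair 42 (0.00150). Pair 28 was 1.85 times pair 29 with nothing subtracted, and 2.58 times after subtraction of the empty vector. Nd1 pair 27 and Nd2 pair 30 differed by 1.79 and 2.32 times.

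In MS2, Nd1 pair 53 was the highest of 24 pairs in off-target editing. Per percent on target, with nothing subtracted, it was 7th (0.00864), between CoIII pair 74 (0.00875) and Nd3 pair 57 (0.00611). With the MS2 empty vector subtracted, pair 53 (0.00689) lay above CoIII pair 74 (0.00606), so its place depended on the background. In MS3, Nd1 pair 54 was 3rd of 12 (0.00758), between Nd6 pairs 14 (0.00979) and 13 (0.00689). Nd2 pairs 55 (0.00560) and 56 (0.00428) were 7th and 10th. Pair 55 lay between Nd5 pair 64 (0.00565) and Nd4l pair 61 (0.00432), and pair 56 between Nd4l pair 10 (0.00432) and Atp8 pair 51 (0.00326). The 2 Nd2 pairs of MS3 differed by 34.4 percentage points on target and by 0.0873 points off target. Pair 55, with less on-target editing, had the larger off-target share per percent. A fixed background would raise this share more at lower on-target editing, but MS3 had no empty vector to measure it. With the mean of the MS1 and MS2 empty vectors subtracted, the values lay closer, at 0.00359 (pair 55) and 0.00314 (pair 56). Pair 55 was still the higher, and the part of the background was not tested.

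**Figure D2:**
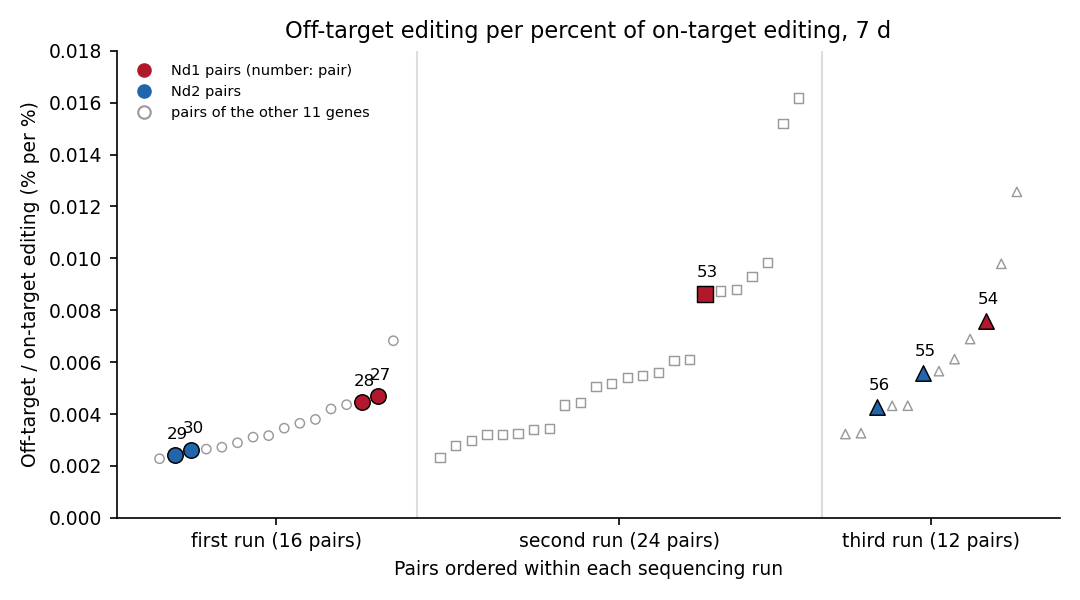
Off-target editing divided by on-target editing (vertical axis, % per 1%) for the 52 screening pairs at 7 d, ordered within each sequencing run along the horizontal axis (MS1, MS2 and MS3 from left to right). In MS1 the Nd2 pairs 29 and 30 lie near the low end (0.00241 and 0.00262) and the Nd1 pairs 28 and 27 near the high end (0.00446 and 0.00468).

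Within each gene, the crossed pairings (as the study's scheme of pairs draws them) read higher off target than the pairings of the first round. For Nd1, pairs 53 and 54 were 1.81 and 1.97 times pair 28 off target, although pair 53 had 5.14 points less and pair 54 had 11.7 points more on-target editing than pair 28. For Nd2, pairs 55 and 56 were 1.72 and 2.31 times pair 29, with 16.1 points less and 18.2 points more on-target editing. For the pair that can be set against its own control, the excess over the empty vector per percent on target was 0.00689 for Nd1 pair 53 and 0.00363 for pair 28, a ratio of 1.90. As a fold over the empty vector of its run, however, pair 53 was lower (4.93-fold) than pairs 28 (5.39-fold) and 27 (5.99-fold). Every crossed pair of Nd1 and Nd2 was sequenced in another run than the first-round pairs of its gene. The empty vectors differed 1.97-fold between MS1 and MS2, so pairing and run cannot be told apart for Nd1 and Nd2. The first-round pairs of a gene, which shared a run, differed little. Pair 27 was 1.11 times pair 28 and pair 30 was 1.16 times pair 29 off target.

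The pairs taken forward as leads held the same places in both genes. Pair 28 was 3rd of the 4 Nd1 pairs on target and the lowest of them off target and per percent on target, and pair 29 held those 3 places among the Nd2 pairs. The leads were chosen by the study from on-target editing and an off-target score of these samples, so these places describe the choice.

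At 14 d the lead pairs of Nd1 and Nd2 were next to each other in on-target editing and far apart off target. The 3 Nd1 samples read 60.5%, 60.3% and 60.5% on target, a mean of 60.4% ± 0.10 (SD, n = 3). The 3 Nd2 samples read 55.8%, 56.3% and 56.6%, a mean of 56.3% ± 0.41 (SD, n = 3). The groups did not overlap, and differed by 4.17 points. Among the 13 lead constructs Nd1 was 8th and Nd2 9th. Neither overlapped a neighbour in that order, which was Nd3 above Nd1 (63.3% ± 0.20) and Nd4l below Nd2 (50.7% ± 0.50, SD, n = 3 each). Among all 13, only Nd5 (48.5% to 50.1%) and Nd4 (47.0% to 49.9%) overlapped each other in this order. The lack of overlap on target therefore does not set Nd1 and Nd2 apart.

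Average off-target editing at 14 d was 0.151%, 0.168% and 0.150% in the Nd1 samples, a mean of 0.157% ± 0.0099 (SD, n = 3). It was 0.0733%, 0.0698% and 0.0709% in the Nd2 samples, a mean of 0.0714% ± 0.0018, and 0.0240%, 0.0240% and 0.0235% in the empty vectors, a mean of 0.0238% ± 0.00028 (SD, n = 3 each). The 3 groups did not overlap. Nd1 lay 0.133 points (6.57-fold) above the empty vector and Nd2 0.0475 points (2.99-fold). All 13 constructs had every sample above all empty vectors (100%), so that count is shared by every construct of the library. Between the genes the ratio was 2.19 and the difference 0.0852 points.

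In the order of the 13 means off target, Nd1 was 5th and Nd2 the lowest. Nd1 overlapped CoI just above it (0.165% ± 0.0044, SD, n = 3) and was clear of Atp8 just below (0.138% ± 0.0032). Nd2 lay under every sample of the other 11 constructs, and the nearest was Nd4l (0.0787% ± 0.0020), whose lowest sample read 0.0764% against 0.0733% in the highest Nd2 sample. Nd2 therefore stood below 4 constructs with less on-target editing (Nd4l, Nd5, Nd4 and Nd6), and Nd1 above 3 constructs with more of it (Nd3, Cytb and Atp8).

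**Figure D3:**
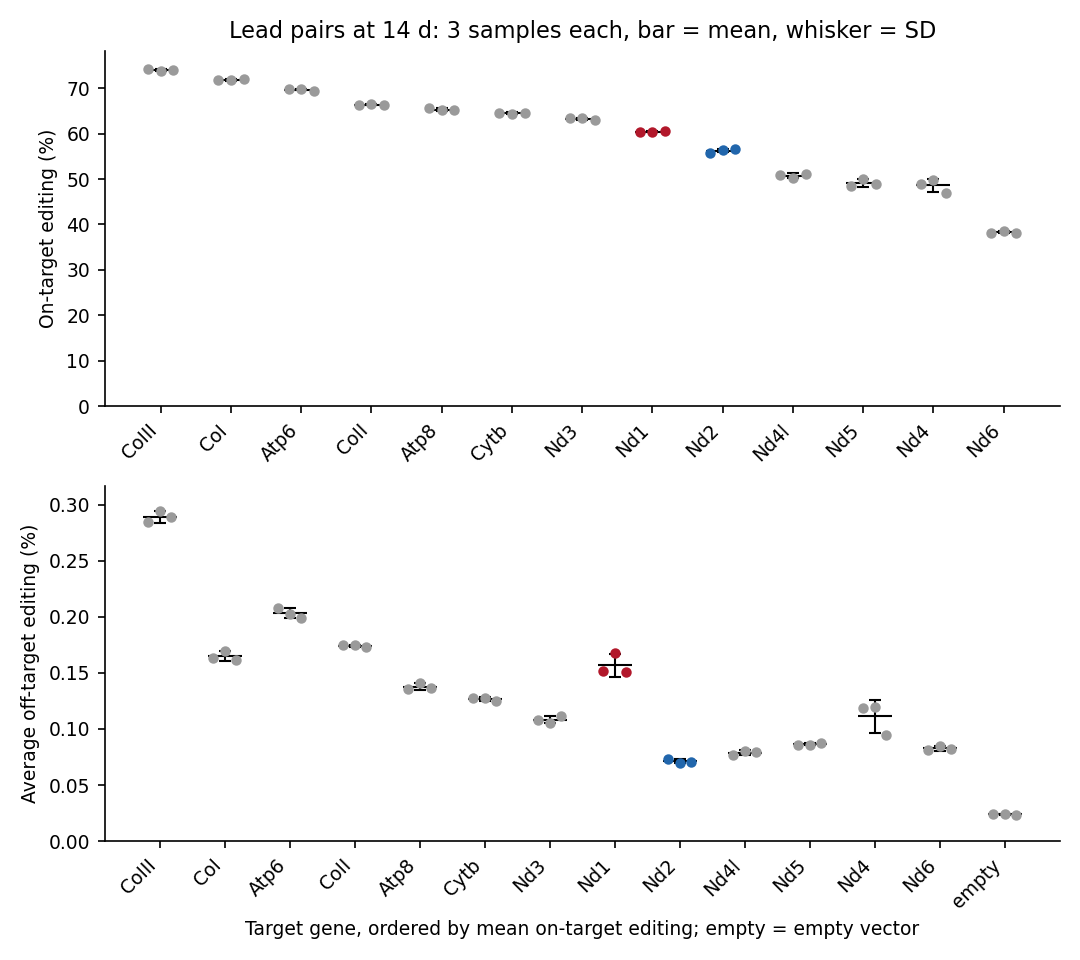
On-target editing (upper panel, %) and average off-target editing (lower panel, %) of the 13 lead constructs at 14 d, in the order of mean on-target editing, with dots for the 3 samples, bars for means and whiskers for SD. Nd1 and Nd2 are neighbours in the upper panel (60.4% and 56.3%), while in the lower panel Nd1 (0.157%) lies above constructs on both sides and Nd2 (0.0714%) is the lowest apart from the empty vector.

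Per percent on target, the excess over the empty vector (off-target editing minus the mean of the 3 empty vectors, divided by on-target editing) was 0.00211, 0.00239 and 0.00209 in the Nd1 samples. It was 0.000886, 0.000816 and 0.000831 in the Nd2 samples. The means were 0.00220 ± 0.00017 and 0.000845 ± 0.000037 (SD, n = 3 each), a ratio of 2.60 with no overlap between these technical repeats. Nd1 was the 4th highest of 13, overlapping CoII just above it (0.00226) and clear of CoI just below it (0.00196). Nd2 was the lowest, with all samples of the other 11 constructs above it and Nd4l the nearest (0.00108 ± 0.000046, SD, n = 3). The median of the other 11 constructs was 0.00174, between the 2 genes.

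**Figure D4:**
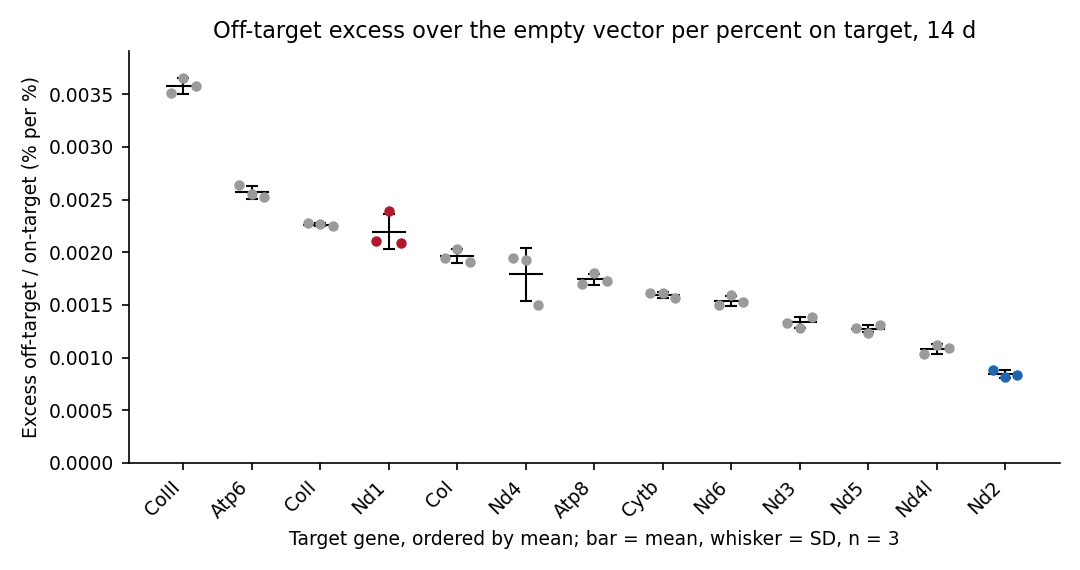
Average off-target editing in excess of the empty vector, divided by on-target editing (vertical axis, % per 1%), for the 13 lead constructs at 14 d in the order of their means, with dots for the 3 samples, bars for means and whiskers for SD. Nd1 is 4th (0.00220) and Nd2 last (0.000845), and no sample of another construct falls among the Nd2 samples.

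The 5 comparisons at 14 d (each gene against the empty vector, and Nd1 minus Nd2 on target, off target and in excess per percent) each gave p = 0.10 in an exact two-sided permutation test, 0.10 after Benjamini-Hochberg adjustment over the 5. This is the smallest p that 3 samples against 3 can give, so none could pass a threshold of 0.05, and all 3 samples lay on the same side in each. Since the repeats are technical replicates by the study's account, these p-values compare the measured samples with the spread of repeat measurement and say nothing of the spread between cultures. In both genes the sample with the highest coverage (65020 in Nd1 and 58814 in Nd2) also had the highest off-target editing (0.168% and 0.0733%). None of the other 11 constructs showed this. In most of those 11, including CoI and Nd4l, the sample with the highest coverage (79673 and 66722) had the lowest off-target editing (0.161% and 0.0764%). The part of coverage was not tested. Without the second repeat of each group the Nd1 minus Nd2 difference off target was 0.0788 points.

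Pairs 28 and 29 can be followed from the screen to the 14 d experiment. On-target editing of pair 28 was 74.4% at 7 d and 60.4% at 14 d, and that of pair 29 was 61.5% and 56.3%. The 14 d mean was 81.2% of the 7 d value in Nd1 and 91.4% in Nd2, so the genes lay 12.9 points apart at 7 d and 4.17 points apart at 14 d. Off-target editing of pair 28 was 0.332% and 0.157%, and that of pair 29 was 0.148% and 0.0714%, so the 14 d mean was 0.472 times and 0.482 times the 7 d value. The empty vector was also lower at 14 d (0.0238% against 0.0616%), and the fold over it was larger, 6.57 against 5.39 in Nd1 and 2.99 against 2.41 in Nd2. The day, the sequencing run and the coverage all differed between the experiments and cannot be told apart, and with 1 sample at 7 d there was no test.

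The ratio between the genes in both experiments depended on what was subtracted, with no error available at 7 d. Off target, Nd1 was 2.24 times Nd2 at 7 d and 2.19 times at 14 d. In excess over the empty vector per percent on target, it was 2.58 times at 7 d (0.00363 against 0.00141) and 2.60 times at 14 d (0.00220 against 0.000845). The 7 d value rests on the empty vector of MS1 alone. With the mean of both screening empty vectors subtracted, pair 28 read 0.00323 and pair 29 read 0.000919, a ratio of 3.51. With nothing subtracted the ratio was 1.85 at 7 d and 2.04 at 14 d. Each gene's own value per percent was lower at 14 d, 0.605 times the 7 d value in Nd1 and 0.601 times in Nd2 with the empty vector of the same run subtracted.

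**Figure D5:**
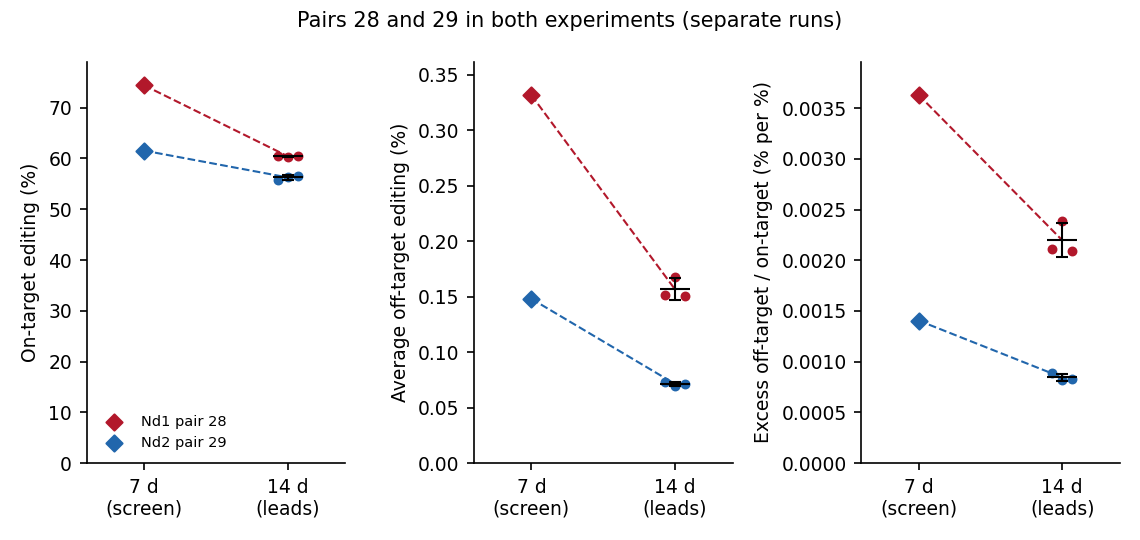
On-target editing (left, %), average off-target editing (middle, %) and excess off-target editing per percent on target (right, % per 1%) of Nd1 pair 28 and Nd2 pair 29 at 7 d (diamond, 1 sample) and 14 d (dots, 3 samples, with mean and SD), with dashed lines joining the values of a pair across separately sequenced samples. The gap between the genes on target was 12.9 points at 7 d and 4.17 points at 14 d, while the ratio in the right panel, with the empty vector of the same run subtracted, was 2.58 and 2.60.

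The average off-target value may or may not count the target itself, as the sources used here do not state which positions enter it. If the target were 1 of 5989 averaged C:G pairs, it would add 0.0101 points in each Nd1 sample at 14 d and 0.00932 to 0.00946 points in the Nd2 samples. With that share taken off, Nd1 lay 0.123 points and Nd2 0.0381 points above the empty vector, and the genes differed by 0.0845 points.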

How the data were processed

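Long-range PCR amplicons covering the mtDNA were sequenced after Nextera XT tagmentation. The authors trimmed reads with Trim Galore and cutadapt, aligned them to chromosome M of GRCm38 with Bowtie2, and tabulated bases with samtools mpileup and varscan (SAMtools, cutadapt and Trim Galore are also in the submitters' processing notes). The deposited on-target and off-target values are percent values, and the deposited coverage is the mean depth of each sample. The authors' quality score was not used. Samples were grouped by labels, and 4 entries that match no sample record were left out.

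Means, SDs (n - 1), ratios and exact two-sided permutation tests (threshold 0.05, tested on simulated data) were computed with python 3.11.15 and numpy 2.4.6, and figures drawn with matplotlib 3.10.9. Sequences were read from the RefSeq mtDNA of GRCm38. Nothing was filtered or transformed. Percentages are shares of PCR reads without molecular identifiers. The pairs, comparisons and alternatives were chosen with earlier results of these data known. Named were all 8 pairs, both leads, and other constructs only where next to them in an order of means (at 14 d on target, off target and excess per percent, in the screen off target per percent within a run). In the comparison of the off-target order with the on-target order, Nd4, Nd5, Nd6 and Cytb were named after their values were seen. The same holds for Nd4 and Nd5 in the overlap on target at 14 d.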

Additional observations from a re-analysis of the deposited data

How the results depend on the processing

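Of the 36 values obtained for the 5 comparisons at 14 d under other settings, 35 kept their direction, and none passed the threshold under any setting. The exception was Nd2 against the mean of all 11 transient empty vectors of the series, where the difference was -0.0357 points (exact permutation p = 0.31). Those empty vectors read from 0.0235% to 0.170% across experiments that were sequenced separately, so this reference carries the background of other experiments, and against it Nd1 lay 0.0495 points higher (exact p = 0.21). Leaving out each repeat number in turn gave 0.127 to 0.136 points for Nd1 against the empty vector, 0.0466 to 0.0484 for Nd2, and for Nd1 minus Nd2 3.94 to 4.31 points on target, 0.0788 to 0.0888 points off target and 0.00124 to 0.00142 in excess per percent. With 2 against 2 the exact p cannot go below 0.33.

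With the replicate number as a block, the paired differences were 0.133 and 0.0475 points against the empty vector, and 4.17 points, 0.0852 points and 0.00135 between the genes, each at p = 0.25, the smallest that an exact sign-flip test of 3 pairs can give. The numbers only name samples. In off-target editing, 1 of 3 numbers lay on the same side of the mean in Nd1 and Nd2. In the screen, 18 of 24 values in the unit of the main value moved by less than the spread between the pairs of a gene, and the 5 folds over the empty vector kept their direction as differences in percentage points. The other 6 were the folds over the mean of both empty vectors, given in the report, and Nd2 pair 55 per percent on target, which was 0.00359 with that mean subtracted. The 2 screening empty vectors, at a coverage of 560 and 524, differed by 0.0599 points, more than pairs 27 and 28 (0.0370 points) or pairs 29 and 30 (0.0233 points) did.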
